A study of Mus musculus with 8 samples.

Results

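The neurotrophins BDNF and neurotrophin-3, the glial cell line-derived neurotrophic factor GDNF and the receptors and sorting receptor that bind them were described in cardiac mesenchymal stromal cells (cMSCs) of aged and young mice. The 9 genes were taken by the gene name in the array files and are Bdnf, Ntf3, Gdnf, Ntrk2, Ntrk3, Ngfr, Sort1, Gfra1 and Ret. They were chosen by family with the aged minus young differences of these same arrays already known, so the difference between aged and young pools is given for them as a description, and the p values beside it support no claim about the family. They hold 17 of 56605 distinct probes on the array, and 9 of 37325 genes.

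cMSCs are fibroblast-like cells of the heart, sorted here from digested ventricles by Sca-1 and PDGFRα on their surface and by the lack of CD31 and CD45. RNA was taken from 4 pools of aged mice (20 months) and 4 pools of young mice (5 months), all labelled as male C57Bl/6 with no treatment or transgene named, and 1 Agilent array with a single dye was hybridized per pool. A pool held 3 mice according to the design text, although the label code of aged replicate 4 differs in form from the others and may stand for fewer. The study's methods also name a reporter line, CX3CR1gfp/+ CD45.1, and the line of these pools is stated only as far as the labels go. Aged pools are numbered 1, 2, 3 and 4 and young pools 2, 3, 4 and 5, and the sources used here do not state whether pools shared mice.

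Neurotrophins are secreted growth factors that keep sensory and sympathetic neurons alive and guide their axons. They are made as precursors, and the mature forms bind receptor tyrosine kinases of the Trk family, BDNF mainly TrkB (Ntrk2) and neurotrophin-3 mainly TrkC (Ntrk3), whereas the precursors bind p75NTR (Ngfr) together with sortilin (Sort1). GDNF belongs to another family, binds the anchored co-receptor GFRα1 (Gfra1) and signals through the kinase RET. In the heart these factors are best known for sympathetic innervation and for effects on vessels.

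On the aged arrays 58.1% to 61.8% of spots were well above background and on the young arrays 57.8% to 63.4%, and no spot was saturated. The defining genes of cMSCs were all present, with 10 of 10 identity markers tested, of which Thy1, which encodes CD90, fell in aged pools by 0.72 on the log2 scale (SE 0.16, adjusted p = 0.0479), and 4 were lower and 1 higher at an unadjusted p under 0.05. These counts stand beside 5.83% of all genes tested that were lower and 8.06% that were higher. The genes of the 2 markers that the sort required did not pass and differed in sign, with a difference of 0.66 for Ly6a, which encodes Sca-1 (SE 0.15, adjusted p = 0.0551), and of -0.21 for Pdgfra (SE 0.09, adjusted p = 0.337). Levels below are log2 signals minus the 75th percentile of the same array, so a level of 0 is that percentile, and levels of different probes are not compared with each other. Differences are aged minus young on the log2 scale. The words rose and fell are used where limma's p, adjusted by the Benjamini-Hochberg method over all 20226 genes tested, was under 0.05. With bulk RNA, fewer cells of a type and less RNA per cell cannot be told apart.

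Of the 9 genes, 8 had a probe well above background on every array of at least 1 group and were tested. Bdnf rose in aged cMSCs, the receptor genes Ntrk3 and Ngfr and the sorting receptor gene Sort1 fell, and Ntf3, Ntrk2, Gfra1 and Ret did not pass. GDNF mRNA was near background in both groups. The count of 1 member that rose stands beside 2.25% of all genes tested that rose, and the count of 3 that fell beside 0.806% that fell. At the thresholds of the study's methods, an unadjusted p of up to 0.01 and a log2 fold change over 0.5 in either direction, 1 member was higher (Bdnf) and 2 were lower (Ngfr and Ntrk3), beside 3.16% of all genes higher and 1.33% lower. Every aged pool lay above every young pool for 1 member and below every young pool for 3, beside 6.32% of all genes above and 4.09% below.

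**Figure D1:**
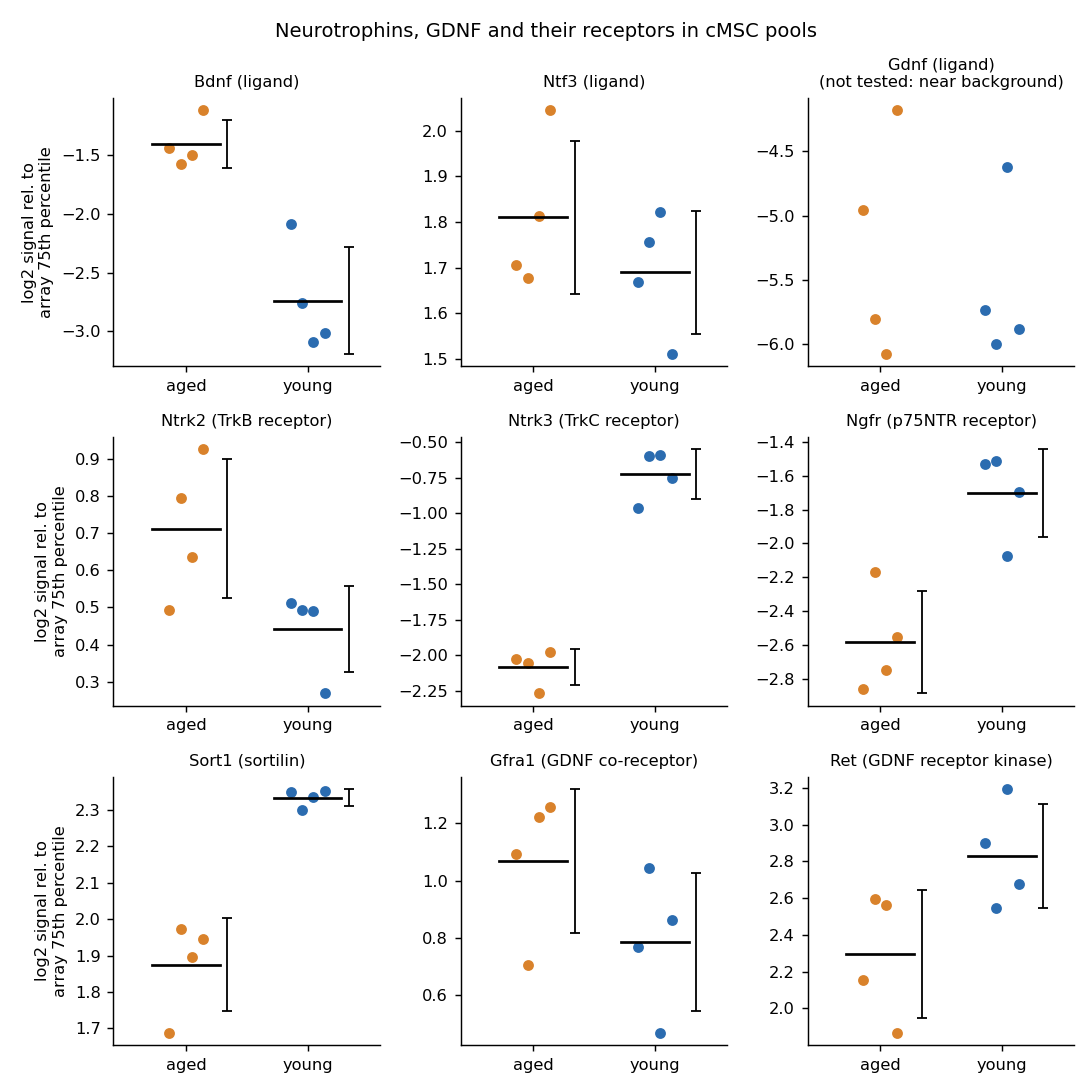
Level of each of the 9 genes in the 4 aged (orange, left) and 4 young (blue, right) pools, as log2 signal minus its array's 75th percentile, with 1 probe for each gene and a separate scale in each panel. Points are pools, black lines are means and bars are SD (n = 4), which are left out for Gdnf, whose probe was above background on 1 aged and 1 young array. Aged pools lie above young pools for Bdnf and below them for Ntrk3, Ngfr and Sort1.

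Bdnf encodes the ligand of TrkB. Its 1 probe, at chr2:109566961-109567020 (mm9, forward strand), lies near the end of the transcript and is listed for 4 transcript variants, so it does not tell apart the alternative first exons for which this gene is known. Bdnf stood at -1.43, -1.57, -1.49 and -1.11 in aged pools 1 to 4. In young pools 2 to 5 it stood at -2.09, -2.76, -3.09 and -3.01. The groups did not overlap, and the highest young pool, replicate 2, was closer to the lowest aged pool than to any other young pool. Means were -1.40 ± 0.20 in aged and -2.74 ± 0.46 in young pools (SD, n = 4 each), a difference of 1.34 (SE 0.22, adjusted p = 0.0148), or 2.52-fold. The difference was 1.61 in the first and 1.06 in the second row of the slide, each with 2 aged and 2 young arrays. With normexp background correction the difference was 0.80 (adjusted p = 0.0194), and the adjusted p was 0.0531 without young replicate 3 and 0.0646 with no filter on dim probes.

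Ntf3, which encodes neurotrophin-3, was measured by 1 probe at chr6:126051431-126051490 (mm9, reverse strand). It stood at 1.71, 1.68, 1.81 and 2.04 in aged pools 1 to 4, and at 1.67, 1.76, 1.82 and 1.51 in young pools 2 to 5. The groups overlapped, and the difference of 0.12 (SE 0.11, 95% interval -0.13 to 0.37, adjusted p = 0.756) was smaller than the spread of the aged pools. Gdnf, the ligand of GFRα1, had 2 probes on chr15. One was well above background on the array of aged replicate 4 and on that of young replicate 4, and the other on no array, so Gdnf was not tested and no fold is given.

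The receptors of the Trk family span the membrane once and carry a kinase inside the cell, and both Ntrk2 and Ntrk3 also give rise to truncated forms that end shortly after the membrane and lack the kinase. The array has probes for both kinds of transcript of Ntrk3. The 3 kept Ntrk3 probes and the Ntrk2 probe that represented its gene are shown, because the age difference of Ntrk3 can be read separately in the truncated and the kinase form, and because the Ntrk2 probe is listed for both of its forms. Capitals mark a stop codon, the last codon of the truncated TrkC form.
Ntrk3 truncated form (variant 2): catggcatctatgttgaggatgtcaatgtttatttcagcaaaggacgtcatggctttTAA
Ntrk3 kinase form (variant 1): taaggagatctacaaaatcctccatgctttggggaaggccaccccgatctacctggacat
Ntrk3 both variants: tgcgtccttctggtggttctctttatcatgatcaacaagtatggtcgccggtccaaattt
Ntrk2 both forms: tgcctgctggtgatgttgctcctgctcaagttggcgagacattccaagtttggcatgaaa

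On mm9 and on the reverse strand of chr7, the probe for both Ntrk3 variants lies at chr7:85595783-85595842, the probe ending in the stop codon at chr7:85447515-85447574 and the probe of the kinase form at chr7:85337455-85337514. In the direction of transcription the exon of the truncated form thus lies between the shared probe and the kinase probe, and each of these probes matches 60 unbroken bases of the genome. The probe of the truncated form, which was the brightest kept probe of Ntrk3, stood at -2.03, -2.06, -2.27 and -1.98 in aged pools 1 to 4, and at -0.96, -0.60, -0.59 and -0.75 in young pools 2 to 5. The groups were clearly apart, with the gap between them wider than the range of either. Ntrk3 fell by 1.36 (SE 0.11, adjusted p = 0.000725) in aged cMSCs, 2.56-fold lower, and ranked 25 by p among the genes tested. The difference was -1.33 in the first and -1.39 in the second row of the slide.

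The kinase form probe of Ntrk3 stood at -2.34, -2.76, -2.30 and -2.34 in aged pools 1 to 4, and at -1.76, -1.44, -1.44 and -0.997 in young pools 2 to 5. The probe of both variants stood at -2.88, -3.16, -3.41 and -2.52 in aged pools, and at -2.02, -1.82, -1.74 and -1.87 in young pools. Neither probe had an aged pool that reached the lowest young pool. In the fit over probes the kinase form fell by 1.03 (SE 0.17, adjusted p = 0.0186) and the shared probe by 1.13 (SE 0.18, adjusted p = 0.0141), beside 1.36 for the truncated form (adjusted p = 0.000744), and whether the forms changed by different amounts was not tested. The remaining Ntrk3 probe, which spans 60102 bases of the genome and so crosses an exon junction, was above background on no array.

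Ntrk2 is the receptor gene for BDNF. The probe listed for both forms, at chr13:58979563-58979622 (mm9, forward strand), stood at 0.49, 0.79, 0.64 and 0.93 in aged pools 1 to 4, and at 0.51, 0.49, 0.49 and 0.27 in young pools 2 to 5. The groups overlapped only through aged replicate 1, which lay among the young pools. The difference was 0.27 (SE 0.11, 95% interval 0.02 to 0.53, adjusted p = 0.320) and did not pass. A second Ntrk2 probe, listed for the full-length kinase form and not for the truncated one, was well above background on the array of aged replicate 4 (-3.71) and on no other array. This probe thus gave no level of the kinase form in 7 of 8 pools, which does not show that the form was absent.

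**Figure D2:**
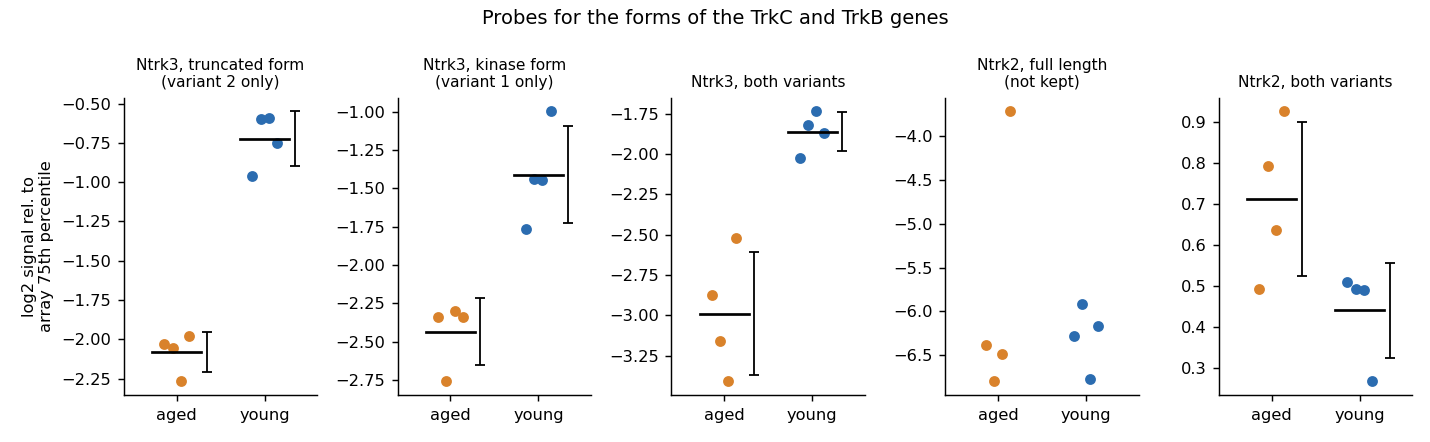
Level of the Ntrk3 and Ntrk2 probes by transcript form in the 4 aged (orange, left) and 4 young (blue, right) pools, as log2 signal minus its array's 75th percentile, each panel on its own scale. Points are pools, black lines means and bars SD (n = 4), left out for the Ntrk2 kinase form probe, which was above background on 1 array. The 3 Ntrk3 panels show every aged pool below every young pool, and the shared Ntrk2 panel shows groups that overlap.

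Ngfr encodes p75NTR, which binds all neurotrophins and their precursors. Its 1 probe, at chr11:95430211-95430270 (mm9, reverse strand), stood at -2.86, -2.17, -2.75 and -2.55 in aged pools 1 to 4, and at -1.53, -1.52, -2.07 and -1.70 in young pools 2 to 5. The groups did not overlap, with aged replicate 2 and young replicate 4 closest to each other. Ngfr averaged -2.58 ± 0.30 in aged and -1.70 ± 0.26 in young pools (SD, n = 4 each) and fell by 0.88 (SE 0.18, adjusted p = 0.0375), 1.84-fold lower in aged cMSCs. The difference was -1.10 in the first and -0.66 in the second row of the slide, and with the row as a block the adjusted p was 0.0582. The adjusted p was 0.0835 to 0.108 without aged replicate 1, 3 or 4 or without young replicate 2, 3 or 5, and normexp background correction gave a difference of -0.55 (adjusted p = 0.0463).

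Sort1 encodes sortilin, a sorting receptor that binds precursors of neurotrophins together with p75NTR and also carries other proteins to lysosomes. The brightest of its 3 probes, at chr3:108164279-108164338 (mm9, forward strand), stood at 1.69, 1.97, 1.90 and 1.95 in aged pools 1 to 4, and at 2.35, 2.30, 2.34 and 2.35 in young pools 2 to 5. The young pools lay within a narrow range and all aged pools were below them. By this probe Sort1 fell by 0.46 (SE 0.08, adjusted p = 0.0245). The other 2 kept probes, both further upstream, showed differences of -0.01 (95% interval -0.41 to 0.39) and -0.08 (95% interval -0.28 to 0.12), with overlapping groups, so the call rests on 1 of 3 probes. The mean of the probes gave a difference of -0.18 (adjusted p = 0.390), and leaving out any 1 of 6 pools (aged replicate 1 or 3, or any young pool) gave adjusted p values of 0.0553 to 0.0751.

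Gfra1, the co-receptor that binds GDNF, had 2 kept probes on chr19. The brighter one stood at 1.09, 0.70, 1.22 and 1.26 in aged pools 1 to 4, and at 0.77, 1.04, 0.47 and 0.86 in young pools 2 to 5. The groups overlapped, with a difference of 0.28 (SE 0.16, 95% interval -0.08 to 0.64, adjusted p = 0.518), and the other probe gave 0.38 (95% interval 0.04 to 0.71, adjusted p = 0.296 over probes). Ret, the kinase through which GDNF signals, was measured at chr6:118101791-118101850 (mm9, reverse strand). It stood at 2.15, 2.59, 2.56 and 1.87 in aged pools 1 to 4, and at 2.90, 2.55, 3.20 and 2.68 in young pools 2 to 5. Aged replicates 2 and 3 reached just above the lowest young pool. The difference was -0.54 (SE 0.20, 95% interval -0.98 to -0.09, adjusted p = 0.245), with -0.60 and -0.47 in the first and second rows of the slide, and with the row as a block the adjusted p was 0.0413. The mRNA of both GDNF receptor components was measured on every array, whereas the ligand was near background.

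**Figure D3:**
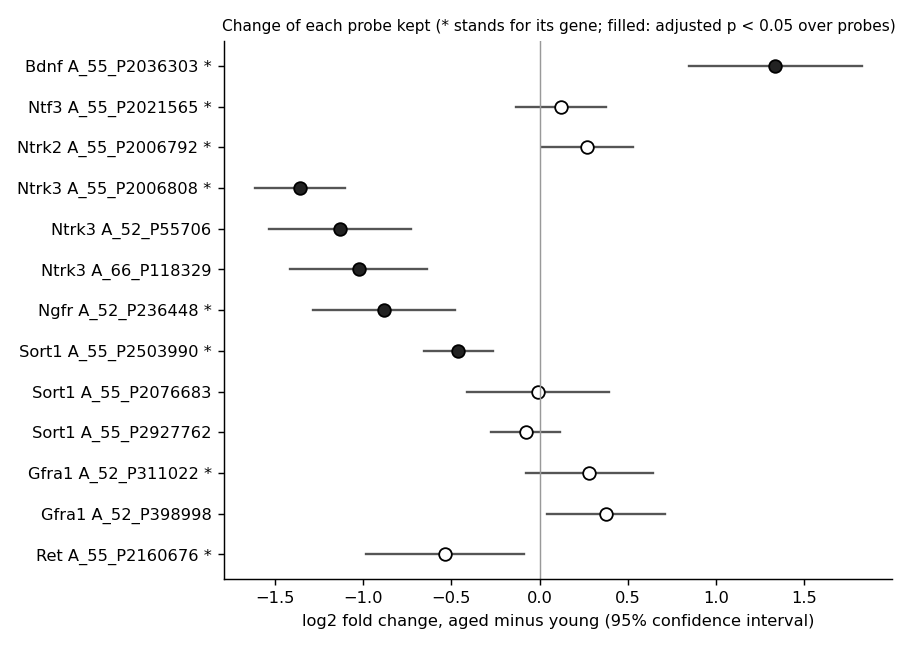
Difference of aged minus young pools on the log2 scale for each of the 13 kept probes, with its 95% confidence interval from the fit over probes. Filled circles passed at an adjusted p under 0.05 over all kept probes and asterisks mark the probe that stood for its gene. The 3 Ntrk3 probes lie between -1.36 and -1.03, and 1 of the 3 Sort1 probes lies apart from zero.

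**Figure D4:**
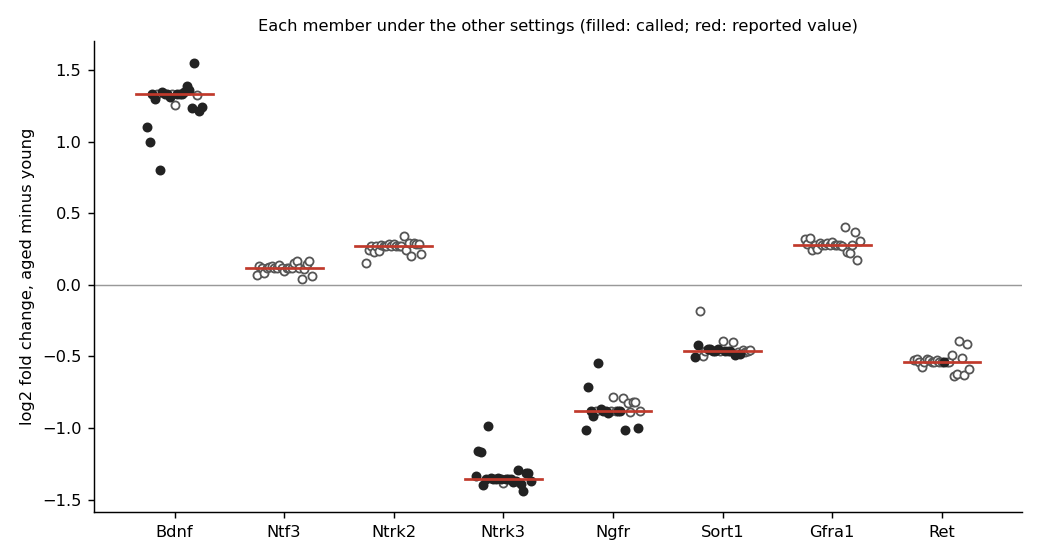
Difference of aged minus young pools on the log2 scale for the 8 genes tested, under 23 other settings of normalization, filter, block and test or with a pool left out. Filled circles were called under that setting and red lines are the reported values. No gene changed direction under any of these settings, several of which altered only the filter, block or test and left the difference as it was. Ntrk3 was called in 22 of 23, Bdnf in 19, Ngfr in 13 and Sort1 in 11.

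The other genes of these pathways were taken from 5 lists with 88 genes, of which 75 were tested, 2 rose and 0 fell, with a median difference of -0.01, beside -0.01 over all genes tested. At an unadjusted p under 0.05, 9 were higher and 7 lower, beside 8.06% of all genes tested that were higher and 5.83% that were lower. The lists were also written with earlier results of these arrays known. Among the other ligands and receptors of both families and their sorting receptors, 12 of 16 genes were tested and limma called 0, with 1 higher and 3 lower at an unadjusted p under 0.05 (median -0.10). Ncam1, which encodes an adhesion molecule that can also bind GDNF, stood at -0.51, -0.37, -0.27 and -0.96 in aged pools 1 to 4, and at 0.35, 0.14, -0.03 and 0.29 in young pools 2 to 5. All aged pools were below the young pools, but the difference of -0.71 (SE 0.16, adjusted p = 0.0514) did not pass. Gdf15, whose protein also signals through RET by way of another co-receptor, showed a difference of -0.35 (adjusted p = 0.586).

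The enzymes that cut neurotrophin precursors held both increases, with 6 of 9 genes tested and a list median of -0.06. Plg, which encodes plasminogen, was above background on no array and was not tested. Mmp3, a matrix metalloproteinase that can cut these precursors outside the cell, stood at 5.55, 5.32, 5.41 and 5.81 in aged pools 1 to 4, and at 4.49, 3.89, 4.38 and 4.17 in young pools 2 to 5. It rose by 1.29 (SE 0.15, adjusted p = 0.00367), with no overlap between the groups. Plat encodes tissue plasminogen activator, which turns plasminogen into plasmin, another such enzyme. It stood at 2.96, 3.03, 2.86 and 3.07 in aged pools, against 2.59, 2.36, 2.59 and 2.58 in young pools, and rose by 0.45 (SE 0.09, adjusted p = 0.0339). The call of Plat was lost in 14 of 23 other settings, among them all 8 fits that left out a pool (adjusted p of 0.0587 to 0.0911), whereas Mmp3 was called in 22.

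Of the adaptors that carry signals from Trk receptors, p75NTR and RET, 29 of 33 were tested and limma called 0, with 0 higher and 1 lower at an unadjusted p under 0.05 (median -0.03). The differences farthest from zero were 0.47 for Dok1 (adjusted p = 0.719), which was 0.02 without young replicate 5, and -0.38 for Grb10 (adjusted p = 0.229). Of the genes that respond to the ERK pathway or dampen it, 16 of 18 were tested and limma called 0, with 3 higher and 1 lower at an unadjusted p under 0.05 (median 0.09). Etv4, a transcription factor induced by ERK, showed a difference of 1.01 (SE 0.23, adjusted p = 0.0583) and Dusp4, a phosphatase that dampens it, one of 0.43 (SE 0.11, adjusted p = 0.0871). In a list of other neurotrophic ligands and their receptors, 12 of 12 were tested and limma called 0, with 3 higher and 1 lower at an unadjusted p under 0.05 (median 0.14). Manf showed a difference of -0.51 (adjusted p = 0.368).

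**Figure D5:**
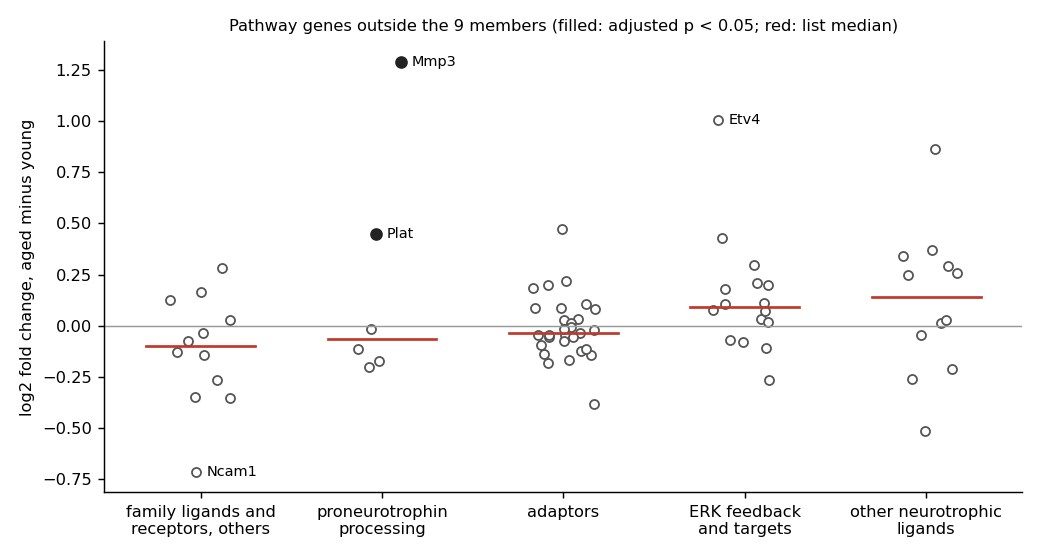
Difference of aged minus young pools on the log2 scale for the 75 tested genes of 5 lists around the 9 genes, 1 point per gene. Filled points passed at an adjusted p under 0.05 and red lines are list medians. Mmp3 (1.29) and Plat (0.45) are the 2 filled points, and Ncam1 (-0.71) is the lowest.

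Several of the 9 genes are also used by cells other than cMSCs, such as Schwann cells, neurons and mural cells, and the marker lists of such cells gave the following values. Summed levels add up the signals of the tested markers, each divided by its array's 75th percentile, so the brightest markers weigh most in a sum. Of 15 Schwann cell and glia markers 8 were tested, Mbp rose by 1.70 (adjusted p = 0.0019) and none fell, and the summed level was 204 to 214 in aged and 204 to 244 in young pools. Their defining gene Sox10 was not kept and was above background on 3 aged and 2 young arrays. The summed level of the Schwann cell and glia markers was mostly that of Pmp22, whose difference was -0.09 (adjusted p = 0.740). Of 15 neuron markers 10 were tested, Uchl1 rose by 0.50 (adjusted p = 0.0367), and the summed level was 55.2 to 71.5 in aged and 43.3 to 54.9 in young pools. All 13 mural cell markers were tested and limma called 0, and the summed level was 81.3 to 88.4 in aged and 86.6 to 95.2 in young pools. At an unadjusted p under 0.05, 0 mural cell markers were higher and 4 lower, beside 8.06% and 5.83% of all genes tested.

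Cardiomyocyte markers were lower in aged pools by their sum, 13.8 to 21.4 in aged and 22.3 to 26.8 in young pools. Of 17 such markers 14 were tested and 2 fell (Tnni3, by 0.33, and Pln), with a median of -0.40. At an unadjusted p under 0.05, 8 were lower and 1 higher, beside 5.83% of all genes tested that were lower and 8.06% that were higher. Pln was above background on 2 of 4 aged and 4 of 4 young arrays. Of 12 endothelial markers all were tested and limma called 0 (0 higher and 1 lower at an unadjusted p under 0.05), with summed levels of 21.9 to 34.5 in aged and 23.0 to 31.2 in young pools. Among 10 neutrophil markers 7 were tested and 3 rose (S100a9 by 4.32, Ly6g by 0.73 and Camp by 0.69), with a list median of 0.69 and S100a8 at a difference of 2.48 (adjusted p = 0.0932). At an unadjusted p under 0.05, 4 were higher and 0 lower, beside the same shares of all genes tested, 8.06% and 5.83%. S100a9 was above background on 3 of 4 young arrays. The summed level of the neutrophil markers, 80.8 to 135 in aged and 93.1 to 127 in young pools, was mostly that of Csf3r, whose difference was -0.08 (adjusted p = 0.919). Of 13 macrophage markers 11 were tested and Cd14 rose by 0.62 (47.4 to 70.4 in aged and 38.6 to 56.7 in young pools), of 11 lymphocyte markers 5 were tested and limma called 0, 1 being higher at an unadjusted p under 0.05 (2.59 to 2.99 in aged and 2.19 to 3.36 in young pools), and of 12 mesothelial and epicardial markers 5 were tested and Dmkn rose by 3.97 (5.78 to 7.32 in aged and 4.87 to 5.67 in young pools). The macrophage sum was mostly that of Itgam, with a difference of 0.35 (adjusted p = 0.5045). The lymphocyte sum was mostly that of Cd4 (0.03, adjusted p = 0.970) and the mesothelial and epicardial sum mostly that of Tbx18 (-0.06, adjusted p = 0.876). In the 8 fits that left out a pool, Mbp, Cd14 and Dmkn passed each time, and Thy1, Uchl1, Tnni3, Pln, S100a9, Ly6g and Camp passed in 0 to 2. The part of these cells in the values of Bdnf, Ntrk3, Ngfr and Sort1 was not tested.

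Candidates for a similar course were the genes tested that had a current symbol (15092 of 20226), without the members. For each of the 4 genes called, the 3 genes with the most similar course over the 8 pools were taken by the root mean square difference of their mean-centred log2 levels. For Bdnf these were Shisa9 (0.146), Ahsg (0.157), which encodes fetuin-A, and Lgals3 (0.208), which encodes galectin-3, where the SD of Bdnf itself over the pools was 0.785. For Ntrk3 they were Pwwp3b (0.109), Lrrc4b (0.118), which encodes a synaptic adhesion protein, and Podxl2 (0.184), with an SD of 0.740 for Ntrk3. For Ngfr they were Wnk2 (0.126), Serp2 (0.159) and Slc2a4 (0.176), which encodes the insulin-responsive glucose transporter, with an SD of 0.538 for Ngfr. For Sort1 they were Mpped2 (0.0583), Tshz1 (0.0670) and Wnk4 (0.0755), with an SD of 0.260 for Sort1.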

How the data were processed

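RNA of 4 aged and 4 young cMSC pools was measured on 8 Agilent SurePrint mouse arrays with 1 colour, on 1 slide in 2 rows of 4, and groups were taken from the sample labels. The authors deposited the scanner output of Agilent Feature Extraction 10.10.1.1 (named in the submitters' processing notes), which gives a background-subtracted intensity per spot that was not normalized between arrays. They also deposited a table of quantile-normalized log2 values of the same arrays, which served as an alternative, and 0 columns belonged to other samples.

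Control spots were left out, as were non-uniform spots and population outliers. Spots of a probe were averaged as log2 of the processed signal, and the 75th percentile of each array over distinct probes was subtracted. A probe was kept (30824 of 56605) where either group had it well above background on each of its 4 arrays. A gene was read from its brightest kept probe, giving 20226 genes. Names came through RefSeq accessions (assembly GRCm38.p6, used for names alone) for 32994 probes, from a current symbol in the array files for 10224, and stayed as in the array files for 13387. Probe positions (mm9) and probe sequences were read from the array files.

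The ages were compared by lmFit and eBayes of limma 3.58.1 (R 4.3.3), where residual degrees of freedom were 6 and prior ones 2.66. The p values were adjusted by the Benjamini-Hochberg method over all genes, or over all kept probes where that is said. The p values weigh the difference between ages against the spread between pools, not between single mice. The test was first checked on simulated data with known changes. The precision is limited by the number of arrays.

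The 9 genes, the pathway lists and the marker lists were chosen with earlier results of these data known. Genes named are every member with its probes, of each pathway list up to 4 called genes or the 2 with the largest change where none was called, the 3 genes most like each called member, and of the marker lists the defining genes and up to 2 called genes each. Ly6a, Pdgfra, Camp, S100a8 and Csf3r were named besides, and a few listed genes that the rule would name are not reported here. Alternatives were other normalizations and background corrections, other filters, the mean of probes, blocks for slide row and pool, other limma options, the methods' thresholds, the authors' table and leaving out each pool. Scaling to the percentile over spots was added after seeing the data.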

Additional observations from a re-analysis of the deposited data

Results flagged for a closer look

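Among 34 groups of 4 pools, 1 for each probe and age, 5 held a pool farther from the others than a Dixon test at the 95% level allows, and chance alone flags about 1 in 20 groups. For the Ntrk2 probe of both forms, young replicate 5 stood at 0.269, with the nearest young pool at 0.491. For the Ntrk2 probe of the kinase form, aged replicate 4 stood at -3.71, with the nearest aged pool at -6.39, and this was the 1 array on which that probe was above background. For the kinase form probe of Ntrk3, aged replicate 2 stood at -2.76, with the nearest aged pool at -2.34. For the dimmer Gfra1 probe, young replicate 4 stood at 0.348, with the nearest young pool at 0.089. For the Gdnf probe that was above background on no array, young replicate 4 stood at -7.37, with the nearest young pool at -6.56.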

How the results depend on the processing

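No gene changed direction under the 23 other settings run. Ntrk3 kept its call in 22 (log2 differences of -1.44 to -0.985), Bdnf in 19 (0.804 to 1.55), Ngfr in 13 (-1.02 to -0.545) and Sort1 in 11 (-0.501 to -0.183). The differences of Bdnf, Ngfr and Ntrk3 were smallest with normexp background correction, and these probes were dim. Leaving out 1 pool at a time gave 0 to 1 members that rose (0 without young replicate 3) and 1 to 3 that fell (1, Ntrk3, without aged replicate 1 or 3 or young replicate 2, 3 or 5), with 1 to 2 pathway genes that rose. Without the filter on dim probes 0 members rose and 1 fell (Ntrk3), with Bdnf at an adjusted p of 0.0646. Pathway genes that rose numbered 1 (Mmp3) with median scaling and with the mean of probes. Pathway genes that fell numbered 1 (Ncam1) with probes above background on all 8 arrays, with array weights, with limma's trend and robust options and at the methods' thresholds. Sort1 had an adjusted p of 0.0515 with median scaling.

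Pools that share a number or a label code do not have a stated common origin, and pools of the same code correlated at -0.269 to 0.181 (over 0.1 in 2 of 4 pairs), with 1 of 4 aged pools closest to the young pool of its own code. With the pool number as a replicate block 0 members rose, 0 fell and 0 pathway genes rose (adjusted p = 0.0999 for Ntrk3 and 0.280 for Bdnf). In that fit aged replicate 1 and young replicate 5 had no pool of the same number and so did not add to the difference. Either block also left fewer residual degrees of freedom than the fit without a block. With the pool code as a replicate block 0 members rose, 1 fell (Ntrk3) and 1 pathway gene rose (adjusted p = 0.0723 for Bdnf).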

Other observations

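Dok1, an adaptor that docks to RET, stood at 1.98, 2.14, 1.74 and 2.07 in aged pools 1 to 4, against 1.97, 2.08, 1.82 and 0.16 in young pools 2 to 5, and young replicate 5 alone lay apart. Young replicate 2 was the young pool with the highest Bdnf level (-2.09) and the highest S100a9 level (-0.98, with the other young pools at -4.71, -3.71 and -3.79). These genes were chosen after their values were seen.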
